A study of Homo sapiens with 10 samples.

Results

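The 9 genes described here encode the D-type cyclins CCND1, CCND2 and CCND3, their kinases CDK4 and CDK6, and the CDK inhibitors CDKN1A (p21), CDKN1B (p27), CDKN1C (p57) and CDKN2C (p18). They were chosen by symbol and are 9 of the 28380 genes in the table of counts. RPE-1 is an established line of human retinal pigment epithelial cells immortalized with telomerase. Cells were treated for 4 h with the vehicle DMSO (5 replicates) or with 25 µM sulforaphane (SFN, 5 replicates), an isothiocyanate from cruciferous vegetables, with 50000 cells in each replicate and complete medium in both groups. The methods name QuantSeq libraries, in which reads come from the 3′ ends of transcripts, and what was deposited is a table of raw read counts by Ensembl gene. The total count per library ranged from 15689294 to 20666692 in DMSO and from 12375860 to 17308706 in SFN. No label says that the replicates came from separate cultures, so p-values measure the spread between these samples, which may be technical.

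D-type cyclins are made when growth factor and nutrient signals are present, and they bind CDK4 or CDK6 to start the phosphorylation of the retinoblastoma protein in G1. INK4 proteins such as CDKN2C bind CDK4 and CDK6 alone, whereas the CIP/KIP proteins CDKN1A, CDKN1B and CDKN1C bind cyclin-CDK complexes and inhibit mainly those with CDK2. Loss of retinoblastoma protein from E2F factors then allows transcription of cyclin E and other genes of S phase entry.

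Levels are given as CPM, the read count relative to library size after scaling by the TMM method, and changes as the log2 fold change of SFN over DMSO with its standard error (SE). The quasi-likelihood test of edgeR was run over the 13378 genes with enough counts, and a gene was called when its p-value, adjusted over all of them by the Benjamini-Hochberg method (edgeR adjusted p), was under 0.05. It called 1214 genes higher and 1862 lower in SFN, or 819 and 2163 with library size scaling alone. DMSO replicate 1 stood apart from the other libraries. Across genes its Spearman correlation with other DMSO libraries averaged 0.935, against 0.979 to 0.982 for each of those. Relative to the mean of all libraries, its log2 CPM also changed by -0.271 for each doubling of transcript length, a measure called the length slope here, while the other DMSO libraries lay between 0.0872 and 0.148 and the SFN libraries between -0.183 and 0.109. The fold changes of the tested members and of some list genes, and the list counts, are given with and without DMSO replicate 1. The labelled cell type was checked against marker genes. VIM, an intermediate filament of mesenchymal and cultured cells, had 5424 to 8567 CPM over all libraries, and the pigment cell factors MITF and OTX2 had 43.9 to 55.1 and 12.1 to 17.7 CPM in DMSO and 18.7 to 25.6 and 8.69 to 9.36 in SFN. BEST1, a chloride channel of this epithelium, had 5.42 to 41.8 CPM in DMSO and 19.4 to 107 in SFN. The visual cycle genes RPE65 and RLBP1, which define mature pigment epithelium, had at most 3 and 4 counts in a library. Summed over each marker list, pigment epithelium had 62.0 to 104 CPM in DMSO and 55.1 to 136 in SFN, simple epithelium 490 to 771 and 511 to 856, and mesenchymal cells 10493 to 15849 and 14639 to 17447. Leukocyte markers summed to 0 to 0.137 CPM in DMSO and 0.282 to 1.43 in SFN, with PTPRC at most 6 counts and CD14 at most 18, and the part of these cell types in the results was not tested.

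Of the 9 genes, 7 had enough counts for the test. SFN lowered CDK6 and raised CDKN1A and CDKN2C, and the differences of CCND1, CCND3, CDK4 and CDKN1B were not past the threshold. Each of the 7 tested members overlaps an annotated gene on the other strand, and such reads cannot be told apart if the counting ignored strand. For CCND1, CDK4 and CDKN1B these partners are protein-coding genes. CDK6-AS1, in CDK6, had at most 8 counts in a library, and DINOL, in CDKN1A, at most 1. Another partner of CDK6 and those of CDKN2C and CCND3 were not counted. Of the 7, 3 were thus called, compared with 23.0% of all tested genes. By direction, 2 were higher, where 9.07% of all genes were, and 1 was lower, where 13.9% were. The median log2 fold change of the 7 genes was 0.30, compared with -0.03 over all tested genes. Without DMSO replicate 1, CCND1 was called lower as well, which gave 2 members higher and 2 lower, while 22.5% of all genes were called higher and 23.5% lower, or 46.1% in all. With sample quality weights in limma 5 members were called higher and 2 lower, and 59.2% of all genes were called.

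**Figure D1:**
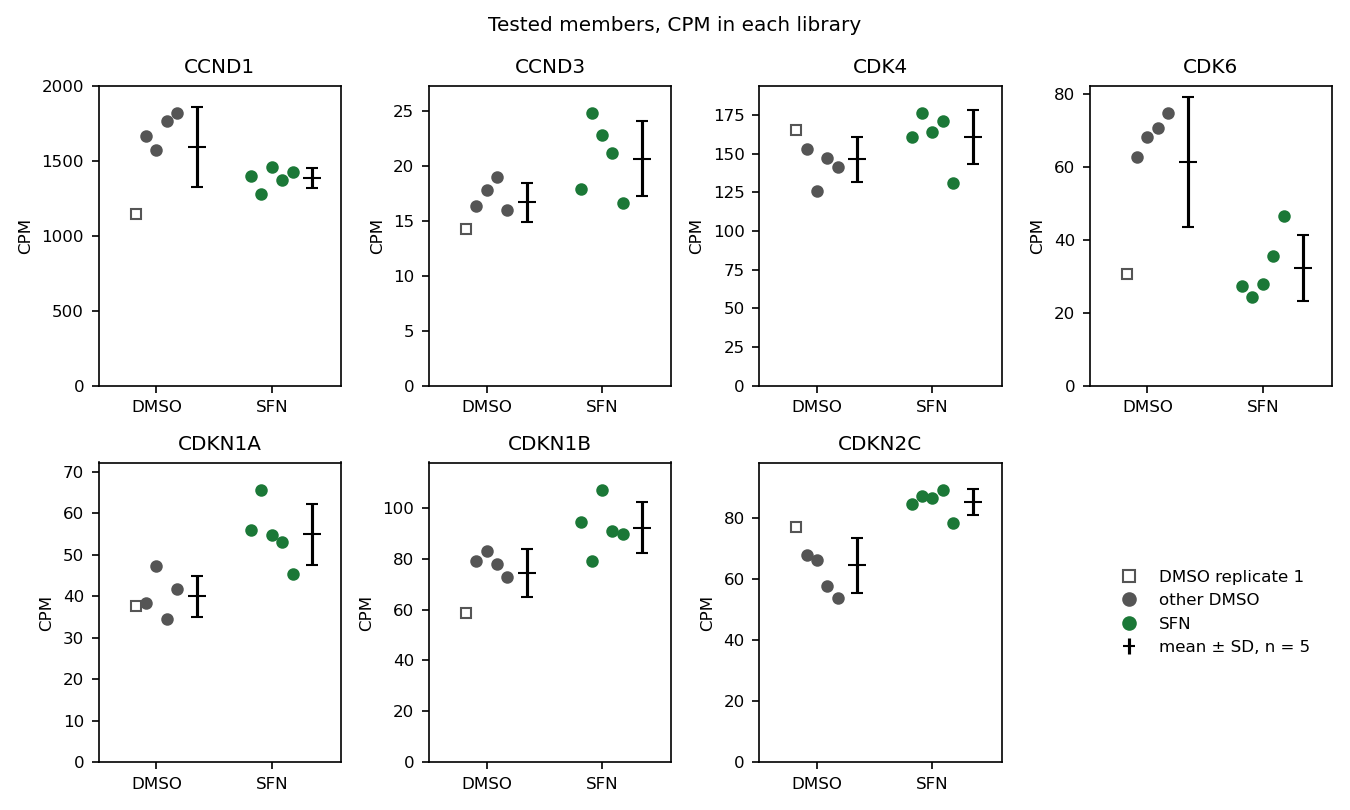
CPM of the 7 tested members in each of the 5 DMSO (grey) and 5 SFN (green) libraries, with the mean and SD as bars and DMSO replicate 1 as an open square. In CDKN2C every SFN library lies above every DMSO library, and in CDK6 DMSO replicate 1 (30.6 CPM) lies among the SFN libraries while the other DMSO libraries lie above all of them.

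CDK6 (chr7:92604921-92836573, minus strand, GRCh38), a kinase partner of D-type cyclins, had 30.6, 62.8, 68.3, 70.8 and 74.8 CPM in DMSO replicates 1 to 5. In SFN replicates 1 to 5 it had 27.4, 24.3, 27.9, 35.7 and 46.7 CPM. Hence 4 DMSO libraries were above all SFN libraries, and DMSO replicate 1 lay inside the SFN range. The mean fell from 61.5 ± 17.8 CPM (SD, n = 5) to 32.4 ± 9.04 CPM (SD, n = 5), a fold change of 0.528 with a 95% interval from 0.364 to 0.766 (log2 fold change -0.92, SE 0.25, edgeR adjusted p = 0.018). In bulk RNA, fewer cells that express a gene and less RNA per cell cannot be told apart. Leaving out DMSO replicate 1 brought the DMSO mean to 69.2 ± 4.99 CPM, the groups no longer overlapped, and the log2 fold change was -1.10 (SE 0.16, edgeR adjusted p = 7.9e-05). The call was lost, at edgeR adjusted p-values of 0.052 and 0.051, when SFN replicate 1 or 3 was left out.

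The canonical CDK6 transcript, of 11663 bases, is longer than that of 97.7% of the tested genes, and 10219 of its bases are 3′ untranslated. Its level moved with the length slope of the libraries. The 5 libraries with a slope below 0, which were 4 SFN libraries and DMSO replicate 1, all had less CDK6 than the 5 with a slope above 0. SFN replicate 5, the SFN library with a slope of 0.109, had the highest CDK6 level of its group. With the slope as a covariate the CDK6 log2 fold change was -0.63 (SE 0.09, edgeR adjusted p = 7.3e-06), with the direction kept and a smaller size. The part of the length slope in the CDK6 result was not otherwise tested. In that fit 50.3% of all tested genes were called.

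**Figure D2:**
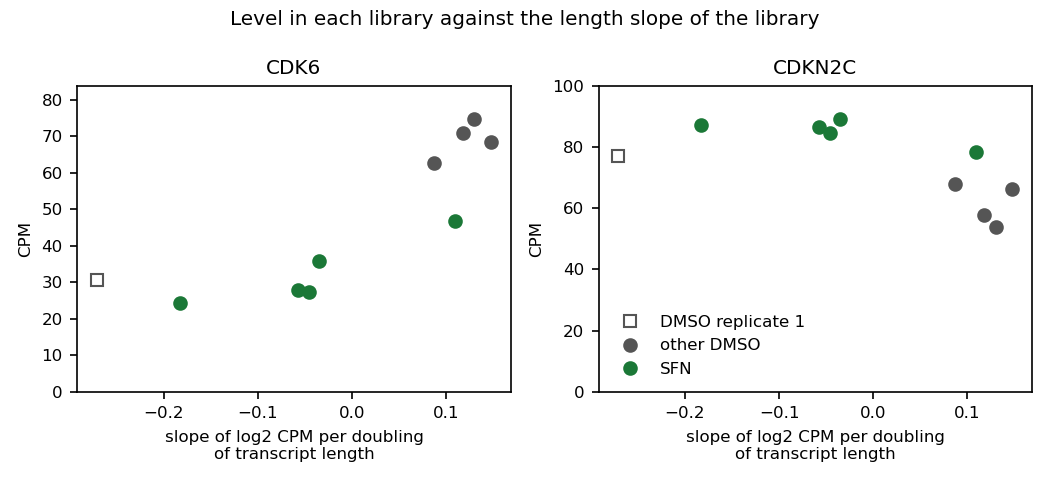
CPM of CDK6 (left) and CDKN2C (right) in each library against the slope of log2 CPM on transcript length in that library, with DMSO in grey, SFN in green and DMSO replicate 1 as an open square. CDK6, with a transcript of 11663 bases, is lowest in the libraries with a slope below 0, and CDKN2C, with 995 bases, is highest in 4 SFN libraries with a slope below 0.

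CDK4 (chr12:57747727-57756013, minus strand), the other kinase of the pair, had 126 to 165 CPM in DMSO and 131 to 176 CPM in SFN. The ranges nearly coincided, and the log2 fold change was 0.13 with a 95% interval from -0.11 to 0.38 (edgeR adjusted p = 0.46). An increase above 1.30-fold or a decrease below 0.924-fold lay outside that interval. Leaving out DMSO replicate 1 gave a CDK4 log2 fold change of 0.17 (edgeR adjusted p = 0.15). Because a ratio of counts within a library needs no scaling between libraries, the pair was also compared directly. Such a ratio does not remove the length slope, as the canonical transcripts of CDK4 and CDK6 have 1865 and 11663 bases. The log2 ratio of CDK4 to CDK6 counts was 2.43 in DMSO replicate 1 and 0.88 to 1.29 in the other DMSO libraries, and it was 1.49 to 2.85 in SFN. Every library with a slope below 0 had a higher ratio than every library with a slope above 0. The part of the length slope in this ratio was not tested. The mean ratio was 1.03 higher in SFN on the log2 scale (two-sided exact permutation test over the 10 libraries, p = 0.024, adjusted p = 0.083 over the 7 pairs of paralogs compared). The smallest p this design allows is 0.0079, and no pair passed the threshold after adjustment.

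CCND1 (chr11:69641156-69654474, plus strand), the D-type cyclin induced by mitogens in most adherent cells, had 14870 to 36658 counts in a library. It had 1146, 1670, 1577, 1765 and 1819 CPM in DMSO replicates 1 to 5. The SFN replicates had 1399, 1283, 1460, 1375 and 1427 CPM. All SFN libraries were thus below 4 of the DMSO libraries and above DMSO replicate 1, which was the lowest of all 10. The log2 fold change was -0.20 (SE 0.13, edgeR adjusted p = 0.32), with a 95% interval from 0.713-fold to 1.06-fold. Without DMSO replicate 1 the DMSO mean was 1708 ± 107 CPM against 1389 ± 67.0 CPM (SD, n = 5) in SFN, and the log2 fold change of -0.30 was past the threshold (SE 0.08, edgeR adjusted p = 0.0054). The canonical CCND1 transcript has 4238 bases, and with the length slope as a covariate the log2 fold change was -0.08 (edgeR adjusted p = 0.35). With all 10 libraries and sample quality weights in limma, CCND1 was past the threshold too (log2 fold change -0.29, limma adjusted p = 3.1e-04). It was past the threshold in these 2 of 18 alternative analyses only.

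CCND3 (chr6:41934934-42050357, minus strand), the third D-type cyclin, had 14.3 to 19.0 CPM in DMSO and 16.6 to 24.8 CPM in SFN, and 3 of 5 SFN libraries were above every DMSO library. Its log2 fold change of 0.30 (SE 0.14) was not past the threshold (edgeR adjusted p = 0.13), and its 95% interval ran from 1.01-fold to 1.52-fold. The log2 fold change was 0.25 when DMSO replicate 1 was left out (edgeR adjusted p = 0.12). With at least 229 counts in a library, counting error alone was at most 6.61% of a CCND3 value. The log2 ratio of CCND1 to CCND3 counts was 6.56 ± 0.19 (SD, n = 5) in DMSO and 6.08 ± 0.28 (SD, n = 5) in SFN, a difference of -0.48 (two-sided exact permutation test, p = 0.016, adjusted p = 0.083 over the 7 pairs).

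CCND2 (chr12:4269771-4305353, plus strand), the D-type cyclin prominent in gonads and lymphocytes, was near the limit of detection, with 0 to 9 counts in DMSO and 0 to 10 in SFN. It had 0 counts in 3 DMSO libraries and 1 SFN library, and a count of 0 allows a level of up to 0.137 to 0.202 CPM in those libraries. With sums of 10 and 23 counts it was too low for the test, and no difference was detectable at this depth.

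**Figure D3:**
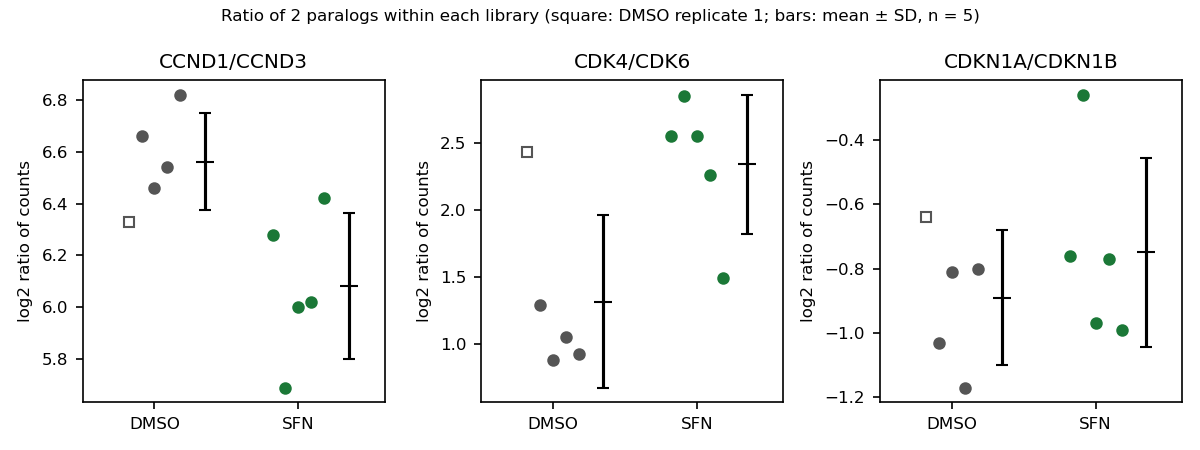
Log2 ratio of the counts of 2 paralogs within each library for CCND1 to CCND3, CDK4 to CDK6 and CDKN1A to CDKN1B, with the mean and SD of each group as bars and DMSO replicate 1 as an open square. The CDK4 to CDK6 ratio lies between 0.88 and 1.29 in 4 DMSO libraries and between 1.49 and 2.85 in SFN, with DMSO replicate 1 at 2.43.

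Among the inhibitors, CDKN1A (p21, chr6:36676460-36687337, plus strand), which several stress-induced factors activate, had 37.7, 38.5, 47.4, 34.6 and 41.9 CPM in DMSO replicates 1 to 5. It had 56.0, 65.7, 54.7, 53.2 and 45.3 CPM in SFN replicates 1 to 5. Only SFN replicate 5 was below the highest DMSO library, and the other 4 were above all DMSO libraries. The median rose from 38.5 to 54.7 CPM, with SDs of 4.88 and 7.29 CPM (n = 5 each), a fitted 1.37-fold increase with a 95% interval from 1.14 to 1.66 (log2 fold change 0.46, SE 0.13, edgeR adjusted p = 0.021). DMSO replicate 1 did not stand apart for CDKN1A, and without it the log2 fold change was 0.43 (edgeR adjusted p = 0.0085). The call was lost without DMSO replicate 2 (edgeR adjusted p = 0.055), DMSO replicate 4 (0.060) or SFN replicate 1 (0.050 after rounding, just above the threshold). It was also lost with the replicate number as a block (edgeR adjusted p = 0.055), with library size scaling only (0.081) and without the low-count filter (0.054).

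CDKN2C (p18, chr1:50960745-50974634, plus strand), an INK4 protein, had 77.0, 68.0, 66.2, 57.8 and 54.0 CPM in DMSO replicates 1 to 5. Its levels in SFN replicates 1 to 5 were 84.8, 87.2, 86.7, 89.3 and 78.3 CPM. Every SFN library was above every DMSO library, and it was the 1 member of 7 whose groups did not overlap. Over all tested genes the groups did not overlap in 19.9%, in 8.78% with SFN higher and in 11.1% with SFN lower. The mean rose from 64.6 ± 9.04 to 85.3 ± 4.20 CPM (SD, n = 5 each), a 1.32-fold increase with a 95% interval from 1.11 to 1.56 (log2 fold change 0.40, SE 0.11, edgeR adjusted p = 0.023). CDKN2C has the shortest canonical transcript of the 9 genes, with 995 bases, and with the length slope as a covariate its log2 fold change was 0.34 (edgeR adjusted p = 0.0011). Without DMSO replicate 1, its highest DMSO library, it was 0.47 (edgeR adjusted p = 7.7e-04). Leaving out DMSO replicate 4 or 5 or SFN replicate 1, 3 or 4 put it above the threshold, at edgeR adjusted p-values from 0.051 to 0.067, and so did dropping the low-count filter (0.072).

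CDKN1B (p27, chr12:12685498-12722369, plus strand), which accumulates in quiescent cells largely through protein stability, had 58.6 to 82.9 CPM in DMSO and 78.9 to 107 CPM in SFN. SFN replicate 2 was the only SFN library inside the DMSO range. The log2 fold change of 0.31 (SE 0.12) was not past the threshold (edgeR adjusted p = 0.085), and by DESeq2 it was (log2 fold change 0.33, DESeq2 adjusted p = 0.031). Its 95% interval ran from 1.03-fold to 1.49-fold. With DMSO replicate 1 left out, the edgeR log2 fold change was 0.24 (edgeR adjusted p = 0.053). The log2 ratio of CDKN1A to CDKN1B counts was -0.89 ± 0.21 in DMSO and -0.75 ± 0.29 in SFN (SD, n = 5 each), a difference of 0.14 that was not past the threshold (two-sided exact permutation test, p = 0.43). The response of the inhibitors was thus not shown to differ. CDKN1C (p57, chr11:2883213-2885775, minus strand), an imprinted gene, had 0 to 12 counts in DMSO and 0 to 6 in SFN, too few for the test.

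**Figure D4:**
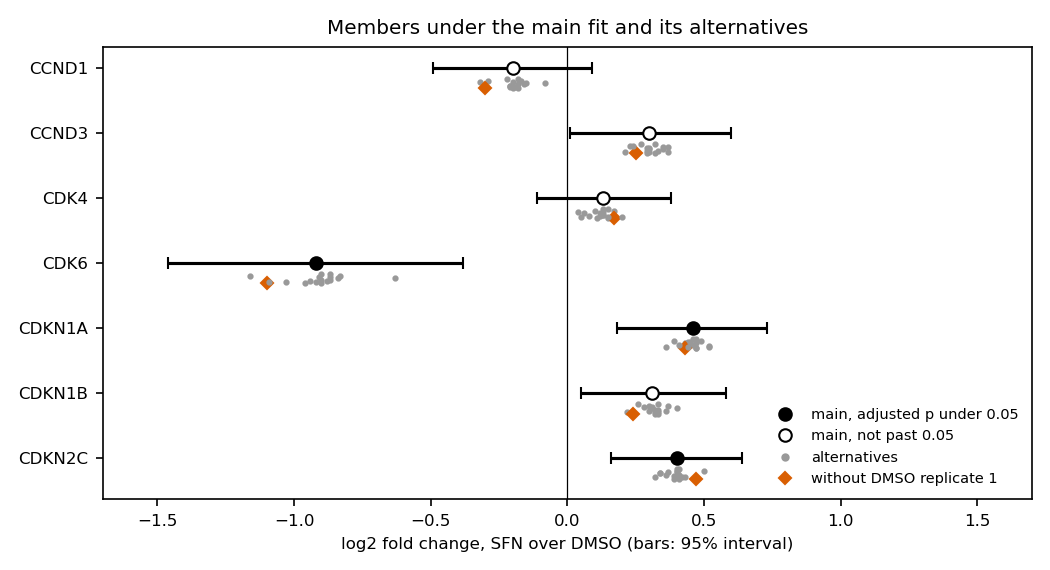
Log2 fold change of SFN over DMSO for the 7 tested members, with the 95% interval (black, filled where the adjusted p is under 0.05), the values under 18 alternative analyses (grey) and the value without DMSO replicate 1 (orange). No alternative turned a direction, and CDK6 has the widest interval, from -1.46 to -0.38.

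The promoters of the 3 called genes and of CDK4 are shown so that the sequence before each changed gene, and before the paralog of CDK6, can be read beside its values. RefSeq promoter windows (GRCh38.p14) matched 6 of the 9 genes, with 11 windows in all, of which CDK6 has 2 and CDKN2C has 3. A single window of each gene is printed, and the 250 bases before the annotated start are printed 5′ to 3′ on the strand of the gene. Capitals mark the GC box GGGCGG and the E-box CACGTG on either strand, and neighbouring GC boxes can overlap.
CDK6 (chr7:92836574-92836823, minus strand): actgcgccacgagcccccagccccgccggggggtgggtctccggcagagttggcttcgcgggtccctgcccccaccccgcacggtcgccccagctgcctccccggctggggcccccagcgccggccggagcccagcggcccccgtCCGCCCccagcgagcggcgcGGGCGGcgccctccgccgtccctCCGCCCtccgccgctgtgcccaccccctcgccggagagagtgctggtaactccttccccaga
CDK4 (chr12:57752311-57752560, minus strand): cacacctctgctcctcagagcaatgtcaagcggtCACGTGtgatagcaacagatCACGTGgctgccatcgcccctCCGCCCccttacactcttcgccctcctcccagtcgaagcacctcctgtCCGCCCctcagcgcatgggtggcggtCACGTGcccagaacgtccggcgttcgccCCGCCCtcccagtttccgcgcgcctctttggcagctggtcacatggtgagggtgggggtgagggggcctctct
CDKN1A (chr6:36678464-36678713, plus strand): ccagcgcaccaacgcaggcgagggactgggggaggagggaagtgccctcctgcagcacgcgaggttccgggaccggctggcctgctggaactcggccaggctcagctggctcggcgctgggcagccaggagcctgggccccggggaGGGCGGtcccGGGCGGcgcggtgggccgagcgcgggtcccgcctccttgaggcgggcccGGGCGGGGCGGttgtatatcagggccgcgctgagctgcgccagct
CDKN2C (chr1:50969995-50970244, plus strand, before the start of the canonical transcript): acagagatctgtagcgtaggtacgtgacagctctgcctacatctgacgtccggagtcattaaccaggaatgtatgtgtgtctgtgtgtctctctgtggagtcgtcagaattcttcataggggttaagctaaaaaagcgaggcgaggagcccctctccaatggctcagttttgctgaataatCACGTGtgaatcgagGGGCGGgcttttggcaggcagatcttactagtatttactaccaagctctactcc
A GC box was found 3 times in the printed window of CDK6, 3 times in that of CDK4, 4 times in that of CDKN1A and once in that of CDKN2C. The other CDK6 window held 0 GC boxes, and the other CDKN2C windows held 0 and 5. Of all windows, 42.6% of 35116 of this length held at least 1. The E-box was found 3 times before CDK4 and once before CDKN2C, where 1 of the other windows held it as well, and 6.34% of all windows held it at least once. These matches describe the letters only.

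Beyond the members, 83 genes that act around them were listed by role, of which 82 were tested. Of these 82, 7 were called higher in SFN and 12 lower, with a median log2 fold change of -0.02, shares near the 9.07% and 13.9% of all tested genes. Without DMSO replicate 1 the counts were 21 and 24, where 22.5% and 23.5% of all genes were called. The counts are thus no result about the lists as a whole. The lists were written with earlier results of these data known, so they are a description.

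In the retinoblastoma and E2F family of 13 genes, 1 was called higher and 3 lower (2 and 5 without DMSO replicate 1). E2F2, an activating E2F, fell from 9.15 to 15.4 CPM in DMSO to 3.18 to 5.43 CPM in SFN (log2 fold change -1.54, SE 0.20, edgeR adjusted p = 1.8e-04). E2F5, a repressive E2F, fell from a range of 6.71 to 8.86 to 1.96 to 3.60 CPM (log2 fold change -1.48, SE 0.19, edgeR adjusted p = 2.1e-04), and neither gene overlapped between groups. E2F8, an atypical repressor, had 14.9 to 17.1 CPM in 4 DMSO libraries, 4.23 in DMSO replicate 1 and 1.90 to 6.21 in SFN (log2 fold change -1.73, SE 0.37, edgeR adjusted p = 0.0052). E2F3 rose slightly (log2 fold change 0.42, edgeR adjusted p = 0.023). The call of E2F3 was lost in 10 of 18 alternative analyses. RB1, the retinoblastoma gene itself, which was named for its role after its values were seen, had a log2 fold change of 0.26 (SE 0.24) that was not past the threshold. It was 0.07 without DMSO replicate 1, and 0.58 and past the threshold with the length slope as a covariate (edgeR adjusted p = 1.3e-05).

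Both cyclin E genes, whose products act with CDK2 after the D-type cyclins, fell. CCNE2 had 31.0 to 47.4 CPM in DMSO and 7.59 to 10.5 CPM in SFN, a fold change of 0.226 (log2 fold change -2.15, SE 0.15, edgeR adjusted p = 2.5e-06). CCNE1 had 12.6 to 15.7 CPM in DMSO and 5.06 to 7.07 CPM in SFN (log2 fold change -1.21, SE 0.13, edgeR adjusted p = 5.5e-05). CDC25A, the phosphatase that activates CDK2, fell by 0.40 on the log2 scale (SE 0.09, edgeR adjusted p = 0.0063). No replicate overlapped between the groups in these 3 genes, which were named because they were called. Over all tested genes, 11.1% had groups that did not overlap with SFN lower. The other 9 genes of this list of 12, with the cyclins A and B and their kinases, were not past the threshold. Leaving out DMSO replicate 1 gave 2 genes of the list called higher and 6 lower.

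**Figure D5:**
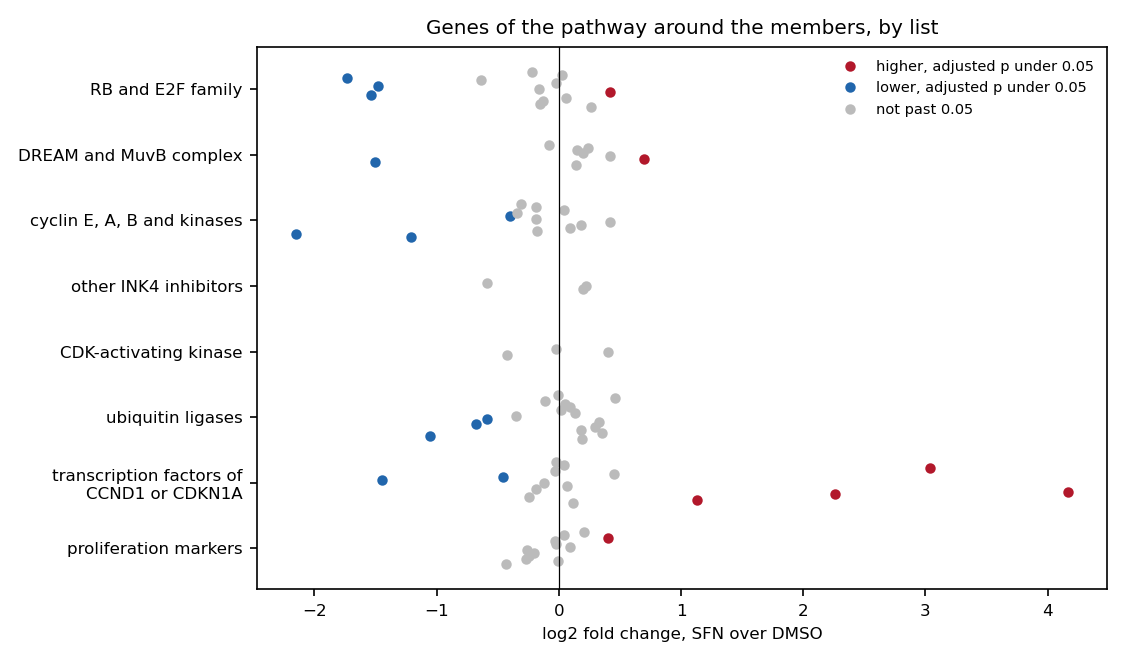
Log2 fold change of SFN over DMSO for each tested gene of 8 lists around the members, coloured where the adjusted p is under 0.05. The 12 genes called lower lie between -2.15 (CCNE2) and -0.40 (CDC25A), and the 7 called higher between 0.40 (AURKA) and 4.17 (EGR1).

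Of the 16 listed components of ubiquitin ligases that degrade D-type cyclins, CDK inhibitors or cyclin E, 3 were called lower and 13 were not called. The list had 5 called higher and 4 lower when DMSO replicate 1 was left out. SKP2, the F-box protein that targets CDKN1B and CDKN1A, fell from 43.2 ± 4.28 to 20.9 ± 2.29 CPM (SD, n = 5 each), without overlap (log2 fold change -1.05, SE 0.12, edgeR adjusted p = 6.5e-05). FBXO31, an F-box protein for CCND1, fell by 0.59 on the log2 scale (SE 0.12, edgeR adjusted p = 0.0042), and FBXW7, the F-box protein for cyclin E, by 0.68 (SE 0.20, edgeR adjusted p = 0.032). FBXW7 was highest in DMSO replicate 1, at 37.1 CPM, and without that library its log2 fold change was -0.43 (edgeR adjusted p = 0.0045). Its call was lost in 7 of 18 alternative analyses, among them the replicate block (edgeR adjusted p = 0.067).

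Among 15 tested transcription factors known to act on the CCND1 or CDKN1A gene, 4 were called higher and 2 lower (5 and 4 without DMSO replicate 1). EGR1, an immediate-early factor, had 36 to 57 counts in a DMSO library and 514 to 783 in an SFN library (log2 fold change 4.17, SE 0.16, edgeR adjusted p = 2.4e-08). ATF3, a stress-induced factor, rose from 11 to 32 counts per library to 97 to 144 (log2 fold change 3.04, SE 0.21, edgeR adjusted p = 2.5e-06). FOS, another immediate-early gene, rose from 7 to 9 counts per library in DMSO to 28 to 36 in SFN (log2 fold change 2.26, SE 0.25, edgeR adjusted p = 6.3e-05). MYC, which activates CDK4 and CCND2 and represses CDKN1A, rose from 46.4 ± 3.07 to 102 ± 13.6 CPM (SD, n = 5 each), a 2.19-fold increase (edgeR adjusted p = 3.1e-05). FOXO1 and FOXO3, which activate CDKN1B and CDKN1A, fell by 1.45 and 0.46 on the log2 scale (edgeR adjusted p = 0.011 and 0.033), FOXO1 from at most 32 counts in a library. The FOXO3 call was lost in 5 of 18 alternative analyses.

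Of 8 DREAM and MuvB genes, which take part in regulating cell cycle genes, LIN52 was called higher (log2 fold change 0.70, edgeR adjusted p = 0.038). LIN37 was called lower (-1.50, edgeR adjusted p = 0.0077). LIN37 had 38 to 55 counts in a DMSO library and 3 to 20 in an SFN library. DMSO replicate 1 was the highest DMSO library for both. Of 12 proliferation markers, AURKA, a mitotic kinase, was called higher (log2 fold change 0.40, edgeR adjusted p = 0.0065) and the other 11 were not called. When DMSO replicate 1 was left out, the proliferation markers had 2 called higher and 4 lower, and the DREAM and MuvB genes 2 and 1. The call of LIN52 was lost in 9 of 18 alternative analyses and that of AURKA in 1. The 3 other INK4 genes and the 3 subunits of the CDK-activating kinase were not called, whereas without DMSO replicate 1, 1 of the former and 2 of the latter were called higher. CDKN2D had the smallest p of the former (log2 fold change -0.59, edgeR adjusted p = 0.14) and CDK7 of the latter (-0.42, edgeR adjusted p = 0.22). Their log2 fold changes were -0.27 and -0.14 without DMSO replicate 1, and -0.77 and -0.56 with the length slope as a covariate, where both were past the threshold (edgeR adjusted p = 2.0e-05 and 7.2e-05).

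Across the 10 libraries, the tested genes of at least 5 mean CPM (10039) whose log2 CPM was most like that of CDK6 included NCR3LG1 and SESTD1, with Pearson's r of 0.995 and 0.992. Their log2 fold changes were -0.84 and -0.56, and each gene was at its lowest DMSO level in DMSO replicate 1. Their canonical transcripts, of 6364 and 10671 bases, are longer than those of 84.5% and 96.7% of the tested genes. For CDKN1A they were MGLL, CTSB and ACTR1A (r of 0.962, 0.960 and 0.955), with log2 fold changes of 0.29, 0.35 and 0.22. These genes were picked as the highest of all, the libraries share the treatment and the length slope, and no test was made.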

How the data were processed

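RNA of 10 RPE-1 libraries was sequenced by the authors with Lexogen QuantSeq and aligned with the Bluebee pipeline. The submitters' processing notes name FastQC, STAR, featureCounts, edgeR and GRCh38, and the strand setting of the counting is not given in the sources used here. The authors deposited raw read counts of 28380 Ensembl genes for each replicate. The authors analysed them with edgeR, voomWithDreamWeights and limma. Their methods state that the fit allowed for repeated measures, and they do not name the repeated unit.

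Here, genes were filtered with filterByExpr (13378 kept), libraries were scaled by TMM, and SFN was compared with DMSO over all genes by edgeR 4.0.16 (glmQLFit, glmQLFTest) in R 4.3.3 with Benjamini-Hochberg adjustment. SEs were taken from the log2 fold change and the F statistic (its size over the root of F). Intervals came from the SE and the total degrees of freedom of the test (residual plus prior). Ratios of paralogs used counts plus 0.5 and exact permutation tests in SciPy 1.17.1. Alternatives used limma 3.58.1 and DESeq2 1.42.0. GENCODE 44 held 28145 of the 28380 identifiers and gave transcript lengths for 13324 tested genes, which give each library's length slope. No replicate pair agreed within sampling noise (chi-square per degree of freedom at least 23.7). Intervals and floors (3 counts) cover only what they are stated for, and the floors only counting error.

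The members, gene lists, tests and alternatives were chosen with earlier results of these data known. The genes named are the members, list genes past the threshold, or else the list gene with the smallest p, the 3 genes most like the largest increase and decrease, and genes within 10 kb of a member. RB1 was added for its role after its values were seen, and 1 of the genes most like CDK6 is not reported here. CCND1 overlaps LTO1, CDK4 overlaps TSPAN31 and MARCHF9, and CDKN1B overlaps GPR19, each on the other strand. CCND2, CCND3, CDK6, CDKN1A and CDKN2C overlap noncoding genes on the other strand, some of which were not counted. Reads of all such partners cannot be told apart if the counting ignored strand. TYR, CDH1 and CD3E of the marker lists were not analysed here.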

Additional observations from a re-analysis of the deposited data

Results flagged for a closer look

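Over the members, the called list genes and the paralog ratios, 70 groups of 5 libraries were examined for a library whose gap to its nearest neighbour took up most of the range of its group. About 4 are expected by chance, and 8 were found, 7 of them DMSO replicate 1. The groups share libraries, CDK6 enters both as a gene and in a ratio, and list genes entered because they were called. The chance count is therefore only a rough guide and no test. The gap is given as a fraction of the range. For CDK6 it was 0.730, with 30.6 CPM against 62.8 to 74.8 CPM in the other DMSO libraries, and for the log2 ratio of CDK4 to CDK6 it was 0.738, with 2.43 against 0.88 to 1.29. E2F8 was low in this library (0.825, with 4.23 against 14.9 to 17.1 CPM). LIN37 (0.767, with 3.43 against 2.12 to 2.43 CPM), LIN52 (0.750, with 27.4 against 11.4 to 15.4 CPM), FBXW7 (0.764, with 37.1 against 17.5 to 22.1 CPM) and FOXO3 (0.872, with 86.6 against 58.6 to 62.2 CPM) were high in it. CCND2 stood apart in DMSO replicate 5 (0.895), which had 9 counts against at most 1 in the other DMSO libraries.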

How the results depend on the processing

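No tested member, named list gene, tested neighbour or ratio changed direction in any of the 18 alternative analyses (12 for ratios), which were not run for the marker genes and the genes most like CDK6 or CDKN1A. Without DMSO replicate 1, with the length slope as a covariate and with sample quality weights in limma-voom, 3058, 3292 and 3874 genes were called higher and 3193, 3431 and 4041 lower, compared with 1214 and 1862. In the last 2 of these, 23 and 24 list genes were called higher and 21 and 27 lower. Members called higher numbered 1 with library size only, 0 without a low-count filter, 1 with the replicate block and 5 with quality weights, and 2 were called lower with quality weights. Under quality weights CCND1 (-0.29), CCND3 (0.23), CDK4 (0.17) and CDKN1B (0.30) were past the threshold. CDKN1B was past it also with the length slope (0.40) and by DESeq2 (0.33). CDKN1A was not with library size only (0.36), no filter (0.44) or the replicate block (0.46, adjusted p = 0.055 by edgeR), and CDKN2C was not without a filter (0.39). Library size only moved the median log2 fold change of all genes from -0.03 to -0.11.

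With each replicate left out, genes called higher ranged from 906 to 3058 and lower from 1470 to 3193, members from 0 to 2 in each direction, and list genes from 5 to 21 and 10 to 24. The log2 fold change ranged from -0.30 to -0.15 for CCND1, 0.24 to 0.37 for CCND3, 0.08 to 0.20 for CDK4, -1.10 to -0.83 for CDK6, 0.39 to 0.52 for CDKN1A, 0.24 to 0.37 for CDKN1B and 0.34 to 0.47 for CDKN2C. CDK6, CDKN1A and CDKN2C stayed past the threshold in 8, 7 and 5 of these 10 fits. Of the list genes, E2F3, LIN52, FBXW7, FOXO3 and AURKA lost their call in at least 1 alternative. Of the 5 same-numbered pairs, replicate 5 deviated together (correlation 0.484) and the others ranged from -0.267 to 0.0394. Only 1 of 5 DMSO libraries matched its own number best, so the main fit did not take the numbers as pairs. This check cannot exclude a pairing, and the paper's methods mention repeated measures without naming the unit. With the replicate block CDKN1A lost its call (edgeR adjusted p = 0.055), and no other member's call changed. For ratios the smallest p the block allows is 0.0625, so no pair could pass the threshold under it. It also leaves the mean difference of a ratio unchanged by arithmetic, so it is no check on that difference. The causes were not tested.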

Other observations

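Of the 17 annotated genes within 10 kb of a member that were counted, 9 were tested. APOLD1, which lies 3548 bases from CDKN1B on the same strand and encodes an endothelial stress-response protein, rose from 19.0 to 31.9 CPM in DMSO to 39.6 to 46.1 CPM in SFN (log2 fold change 0.97, SE 0.15, edgeR adjusted p = 6.4e-04). The change of CDKN1B itself was 0.31. BYSL, a ribosome biogenesis factor beside CCND3, fell by 0.82 on the log2 scale (SE 0.12, edgeR adjusted p = 5.4e-04), from 29.7 to 36.6 CPM in DMSO to 15.2 to 22.0 CPM in SFN, while CCND3 was at 0.30. TSPAN31, which overlaps CDK4 on the other strand, had 43 to 115 counts in a library and a log2 fold change of 0.89 (SE 0.26, edgeR adjusted p = 0.030), a call that was lost in 6 of 18 alternative analyses. LTO1, TIGAR, TAF8, MARCHF9, GPR19 and FAF1 were not past the threshold, with log2 fold changes from -0.73 for MARCHF9 to 0.67 for GPR19. Without DMSO replicate 1 MARCHF9 was at -0.36, and LTO1, at -0.29 with it, was at -0.36 and past the threshold (edgeR adjusted p = 0.0073). Among the antisense RNAs of members, CDK6-AS1 had at most 8 counts in a library and CCND2-AS1 and DINOL at most 1.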
